A study of Homo sapiens with 6 samples.

Results

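The proteasome is the large protease complex that degrades proteins tagged with ubiquitin. Its core particle is a barrel of stacked alpha and beta rings, and 3 of the beta subunits carry the proteolytic sites. A regulatory particle of ATPases, ubiquitin receptors and a deubiquitinase sits on the ends of the barrel, unfolds substrates and feeds them in. Dedicated assembly factors build both particles, and alternative activators or an inhibitor can bind the core instead. Plasma cells and myeloma cells make large amounts of secreted protein, and inhibitors of the catalytic subunit encoded by PSMB5 are a standard class of myeloma drugs.

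Proteasome genes were taken as all genes whose symbol begins with PSMA, PSMB, PSMC, PSMD, PSME, PSMF or PSMG, with PSMB8 and PSMB9 left out by that rule. Each gene was read from its brightest probe set annotated to that gene only, and 48 of the 19775 genes named on the array qualified. Of these, 40 encode parts, regulators or assembly factors of the proteasome. They were 15 core subunits, 14 regulatory particle subunits, 3 alternative activators, 1 inhibitor and 7 assembly factors. The other 8 genes share only the prefix: PSMA3-AS1, PSMB8-AS1, PSMC3IP, PSMD14-DT, PSMD6-AS2, PSMD7-DT, PSME3IP1 and PSMG3-AS1. PSMA6 and PSME2 were measured only by probe sets shared with other genes, and PSMC5, PSMD7, PSMD13 and PSMB11 were not analysed here.

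The samples were sorted CD24+ and CD24− cells of 3 human myeloma cell lines, ARP1, OCI-MY5 and OPM2, with 1 array per line and fraction, so 6 arrays in all. CD24 is a surface glycoprotein, and the study treated the CD24+ cells as myeloma stem cells and asked how their transcripts differ from those of CD24− cells. The labels name no drug or genetic change in any line. Values are intensities from Affymetrix U133 Plus 2.0 arrays, which report the brightness of a set of short probes per transcript. They were compared as log2(intensity + 16). The labels do not say that fractions came from separate cultures, so the p-values measure only the spread between these arrays, and 2 arrays per line limit the precision.

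CD24 gave no check of the sort: its brightest probe set read 29.0 and 47.2 in ARP1, 70.5 and 3.3 in OCI-MY5, and 99.2 and 58.6 in OPM2, CD24+ first, with a mean log2 value of 5.88 that lies below the limit used for testing. The highest negative control value on any array was 96.4, on OPM2 CD24+. All 8 plasma cell markers on the list (SDC1, CD38, TNFRSF17, XBP1, IRF4, PRDM1, MZB1 and SLAMF7) stood above that value on every array. Their summed intensity was 48967 to 109220 in CD24+ and 54500 to 115400 in CD24− samples. None of the named B cell (3), T and NK cell (4), myeloid (4) or erythroid (2) markers did so on every array, and 1 of 4 stromal markers, COL1A1, did. Set against the controls of the same array instead, the erythroid marker HBB also stood above them on every array (76.2 to 2298). The B cell marker PAX5 read 370 and 272 in ARP1 and 334 and 421 in OCI-MY5, above 96.4, but 16.4 and 15.9 in OPM2, CD24+ first. No marker was at 0. The summed intensities in CD24+ and CD24− samples were 441 to 615 and 158 to 559 for the B cell list, 121 to 389 and 79.5 to 262 for the T and NK cell list, and 61.6 to 600.2 and 120 to 275 for the myeloid list. They were 329 to 528 and 379 to 549 for the stromal list and 85.0 to 2385 and 195 to 1796 for the erythroid list, where HBB was brightest in OPM2. The part of these cell types in the results below was not tested. The OPM2 CD24+ array stood apart, with a geometric mean spike-in signal of 37362 against 6174 to 7400 on the other arrays. The 3′ to 5′ signal ratio of ACTB, which rises as RNA degrades, was 2.63 and 2.47 in ARP1, 9.36 and 23.2 in OCI-MY5, and 27.1 and 7.54 in OPM2, with CD24+ given first.

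The antioxidant response element is a known binding site for transcription factors that act on many proteasome genes, so promoter stretches that hold its letters are shown. The core of that element, TGACNNNGC, was searched on both strands from 250 bases before to 50 bases after each start listed by RefSeq (GRCh38.p14). Of 34 proteasome genes in the table, 12 (35.3%) held a match, against 16.1% of all 27305 genes in it. By window, 12 of 40 (30%) and 13.3% of all 35116 matched. The matches lay in PSMA4, PSMB3, PSMC4, PSMD1, PSMD3, PSMD5, PSMD9, PSMD12, PSME1, PSME4, PSMG1 and PSMG2. A match describes the letters in the window and shows no binding. Stretches of 61 bases follow for 4 members described below, with the matched core in capitals, on the strand of the gene. They are an alpha ring subunit, an assembly factor of the base, an activator and an assembly factor of the core. The last of these, PSMG1, passed no test between lines or fractions. The match begins 126, 134, 86 and 183 bases before a listed start, in that order, at chr15:78540634-78540694 (plus strand), chr9:120843022-120843082 (minus strand), chr14:24136082-24136142 (plus strand) and chr21:39183600-39183660 (minus strand).
PSMA4: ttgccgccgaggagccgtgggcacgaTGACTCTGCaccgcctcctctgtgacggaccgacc
PSMD5: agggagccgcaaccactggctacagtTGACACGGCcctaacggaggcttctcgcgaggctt
PSME1: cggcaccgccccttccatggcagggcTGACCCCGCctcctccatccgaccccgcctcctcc
PSMG1: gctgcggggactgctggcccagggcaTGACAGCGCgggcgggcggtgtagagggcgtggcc

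All 40 proteasome genes were bright enough to be tested, together with 5 of the 8 that share only the prefix. The brightness limit was a mean log2 value of 6.36, the median of all probe sets, and 12078 genes passed it. The 3 members below it were non-coding transcripts, PSMD14-DT (intensity 4.9 to 70.9 over the 6 arrays), PSMD7-DT (2.5 to 36.1) and PSMG3-AS1 (8.8 to 99.0). Each gene's log2 value was also set against its own mean over the 6 arrays. The median of these deviations over the 40 proteasome genes was −0.09 and −0.15 in ARP1, 0.25 and 0.32 in OCI-MY5, and −0.35 and −0.02 in OPM2, CD24+ first. Both OCI-MY5 arrays lay above the other 4, and OPM2 CD24+ was the lowest. Over all tested genes the same medians ran from −0.05 to 0.05.

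**Figure D1:**
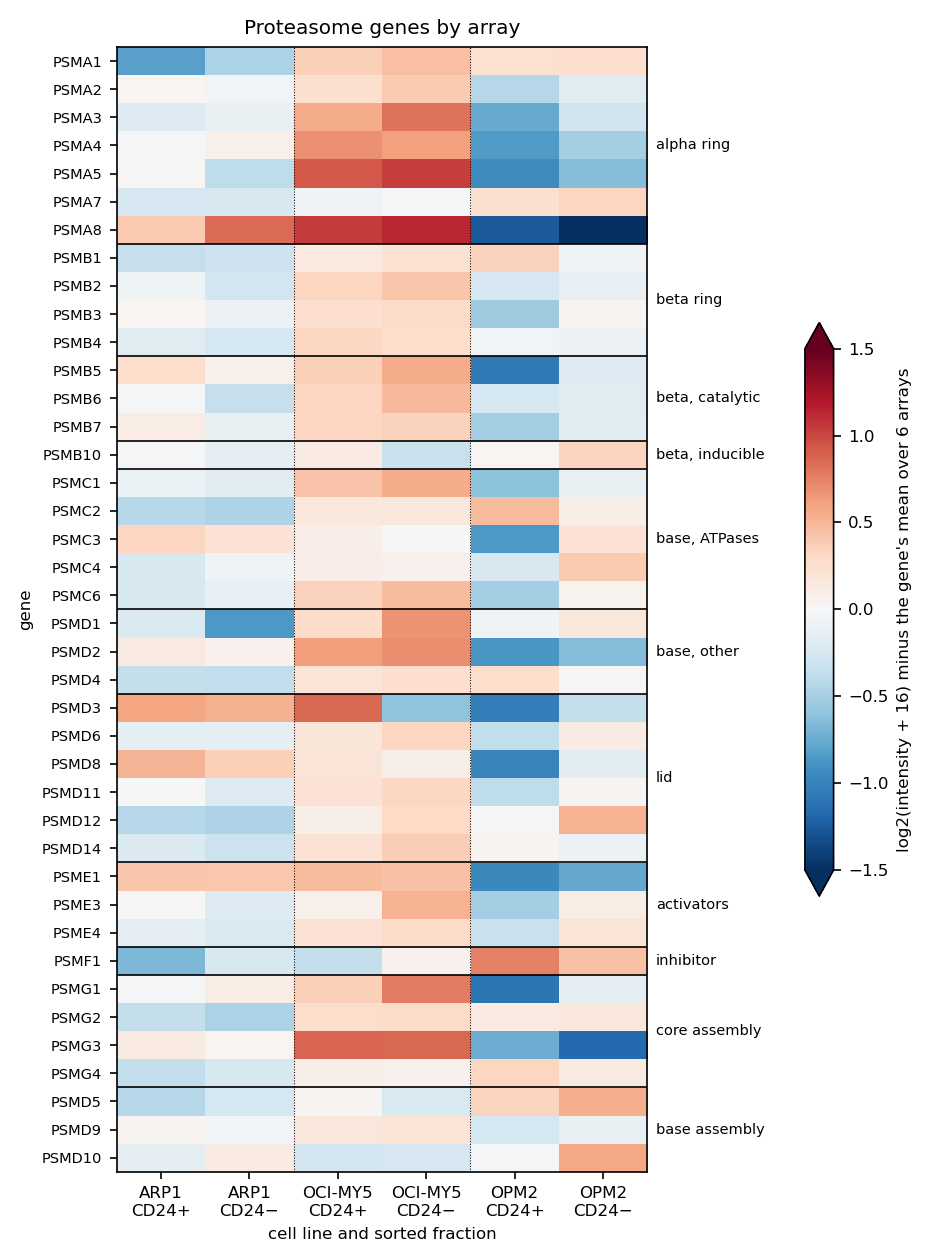
Colour shows each proteasome gene's log2(intensity + 16) minus its own mean over the 6 arrays, with genes in rows ordered by role and arrays in columns; the scale is cut at 1.5 in both directions, and only PSMA8 in OPM2 CD24− cells goes past it. Most genes are red in both OCI-MY5 columns, where the median deviation is 0.25 and 0.32, and blue in the OPM2 CD24+ column, where it is −0.35.

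The first comparison asked how the lines differ. Between ARP1 and OCI-MY5, the 40 proteasome genes had a median difference of −0.45 on the log2 scale (ARP1 minus OCI-MY5), against 0.04 over all tested genes. The median was −0.51 for the core, −0.56 for the regulatory particle, −0.35 for the activators with the inhibitor and −0.38 for the assembly factors. It was −0.33 for the core with the mean of probe sets, and −0.13 for the activators with the inhibitor without OCI-MY5 CD24−. Of the 40 genes, 35 had the lower mean in ARP1 and 5 the higher. For 34, both OCI-MY5 arrays read above both ARP1 arrays, compared with 30.3% of all tested genes. That count was 33 after quantile normalization, 34 when every array was centred on its own median, and 31 when a gene's probe sets were averaged. These were 14 of 15 core genes, 11 of 14 regulatory particle genes, 3 of 4 activators or inhibitor and 6 of 7 assembly factors. Both ARP1 arrays read above both OCI-MY5 arrays for 3 genes, compared with 33.6% of all tested genes. They were PSMC3, an ATPase of the base, PSMD8, a lid subunit, and PSMD10, a chaperone of the base. PSMB10, PSMD3 and PSMF1 overlapped. Within fractions the median difference was −0.39 in CD24+ cells (37 of 40 lower in ARP1) and −0.52 in CD24− cells (35 of 40 lower).

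No single proteasome gene passed the test between ARP1 and OCI-MY5, where limma with Benjamini-Hochberg adjustment called 2.62% of all tested genes at an adjusted p of 0.05. At an unadjusted p under 0.05 there were 17 of the 40, and 2842 of all 12078. PSMA1, an alpha ring subunit, came nearest. It read 9188 and 11576 in ARP1, 20732 and 22086 in OCI-MY5, and 19003 and 19176 in OPM2. The difference was −1.05 ± 0.19 (SE, limma, 2 arrays per line, adjusted p = 0.063). The ARP1 arrays were the lowest pair and did not overlap either other line. Both further PSMA1 probe sets gave like differences of −1.23 and −1.34. The count of calls among the 40 was 13 with a prior variance that follows intensity, where 1375 of all 12078 genes (11.4%) were called. It was 7 when genes had to reach the 75th percentile of brightness, where 1280 of 7639 (16.8%) were called. Without either OPM2 array it was 3, where 1060 of 12078 (8.78%) were called. With the fraction added as a term it stayed at 0, and the calls over all genes went from 316 to 6. The ACTB 3′ to 5′ ratio was lower on both ARP1 arrays than on both OCI-MY5 arrays; its part in this difference was not tested.

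OCI-MY5 gave the highest line mean for 29 of the 40 proteasome genes, against 29.0% of all tested genes. OPM2 gave the highest for 8 (38.6% of all tested genes) and ARP1 for 3 (32.4%). The lowest mean fell in OPM2 for 21 (40.2% of all tested genes), in ARP1 for 17 (28.0%) and in OCI-MY5 for 2 (31.7%). Both OCI-MY5 arrays stood above all 4 others for 25 genes, compared with 16.2% of all tested genes. All 3 catalytic subunits, 6 of 7 alpha ring subunits, 3 of 4 non-catalytic beta subunits and 3 of 4 core assembly factors were among these 25. Of the other groups, 7 of 14 regulatory particle genes, 2 of 4 activators or inhibitor and 4 of all 7 assembly factors were among them. These shares were not tested against each other. Against OPM2 alone, OCI-MY5 was above without overlap for 26 genes, where 34.3% of all tested genes were. Without OPM2 CD24+, the array that stood apart, the counts were 29 of 40 against OPM2 (46.2% of all genes) and 28 of 40 against both lines (19.3%).

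The catalytic subunits did not pass the test in any line contrast. PSMB5 carries the chymotrypsin-like site. Its intensity was 4988 and 4359 in ARP1, 5309 and 6096 in OCI-MY5, and 1979 and 3625 in OPM2. Both OPM2 arrays were below the other 4, and OPM2 minus OCI-MY5 was −1.08 ± 0.33 (SE, limma, adjusted p = 0.066). PSMB6, with the caspase-like site, read 7371 and 5866, 9310 and 10463, and 6220 and 6550 in the lines as ordered above. Its OCI-MY5 arrays were the highest, ARP1 and OPM2 overlapped, and the differences from OCI-MY5 were −0.58 ± 0.20 in ARP1 and −0.63 ± 0.20 in OPM2 (limma, adjusted p = 0.17 and 0.075). PSMB7, with the trypsin-like site, read 12011 and 10366, 13983 and 14154, and 7831 and 9983. Here the 3 lines did not overlap, in the order OCI-MY5, ARP1, OPM2, and OPM2 minus OCI-MY5 was −0.67 ± 0.20 (limma, adjusted p = 0.069). PSMB10, which replaces PSMB7 in the inducible form of the core, read 3971 and 3662, 4370 and 3178, and 4099 and 5063. Its line mean was highest in OPM2, but its differences between lines, 0.03 to 0.29, were about as large as their SE of 0.24 or smaller.

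**Figure D2:**
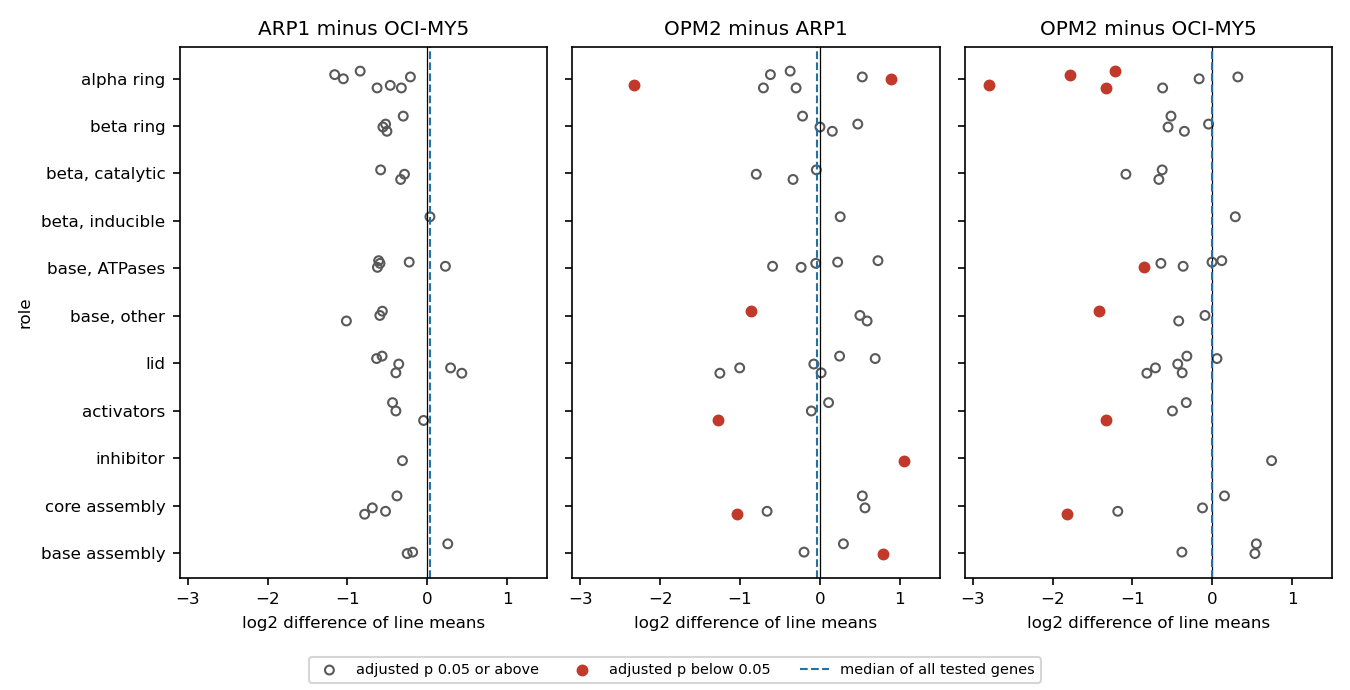
Each point is 1 proteasome gene, placed by its difference between line means in log2(intensity + 16) and by its role; filled points have an adjusted p below 0.05 (limma), and the dashed line is the median of all tested genes. In the first panel 35 of 40 points lie below 0 and none is filled, while OPM2 has filled points on both sides of 0 against ARP1 and only below 0 against OCI-MY5.

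OPM2 was lower than OCI-MY5 for 8 proteasome genes that passed the test, in a contrast where limma with Benjamini-Hochberg adjustment called 14.7% of all tested genes lower. None was called higher, where 11.4% of all genes were. The called genes were the alpha ring subunits PSMA3, PSMA4, PSMA5 and PSMA8, the base subunits PSMC1 and PSMD2, the activator PSME1 and the assembly factor PSMG3. The median over all 40 was −0.43, against −0.00 over all tested genes, and was −1.21 over the 7 alpha ring genes. The all-gene calls were 1371 higher and 1779 lower, and 489 higher and 1681 lower with each array centred on its median. The median was −0.62 for the core, −0.40 for the regulatory particle, −0.41 for the activators with the inhibitor and −0.12 for the assembly factors. In the same order, these medians were −1.02, −0.79, −0.81 and −0.52 with arrays centred, −0.49, −0.26, −0.12 and −0.10 without OPM2 CD24+, and −0.74, −0.63, −0.70 and −0.15 without OPM2 CD24−. The assembly factor median was −0.04 after quantile normalization, and that of the regulatory particle −0.66 with the mean of probe sets. Assembly factors were split: PSMG1 and PSMG3 were at −1.18 and −1.82, while PSMD5 and PSMD10 were at 0.53 and 0.55, and only PSMG3 passed. Leaving out an array mattered: the count was 1 without OCI-MY5 CD24−, 3 without OCI-MY5 CD24+, and 16 without OPM2 CD24−, with the lone array assumed to vary like the other lines. Without OPM2 CD24+ it was 8, and the median was −0.30. PSMC1 (−0.86 ± 0.23, limma, adjusted p = 0.0476) kept its call in 4 of 9 alternative settings, and had an adjusted p of 0.0648 with the fraction as a term (limma).

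PSMA8 encodes an alpha subunit known from the testis form of the core. It read 306 and 427 in ARP1, 491 and 520 in OCI-MY5, and 86.8 and 38.8 in OPM2. Both OPM2 arrays read below the other 4, but also within the range of the negative control probe sets of the same array, which reached 96.4 and 61.3. The OPM2 level is therefore only a bound. With OPM2 set to the top of that range, PSMA8 was at least 5.59-fold lower in OPM2 than in OCI-MY5 and at least 4.05-fold lower than in ARP1 (limma on the measured values, adjusted p = 0.00665 and 0.0119). It was the one proteasome gene of the 40 with an array inside that range. PSMG3 is a chaperone that helps to build the alpha ring. It read 2223 and 2063 in ARP1, 3722 and 3681 in OCI-MY5, and 1201 and 891 in OPM2. Fractions of 1 line were close and the lines were fully separate. OPM2 minus OCI-MY5 was −1.82 ± 0.21 (limma, adjusted p = 0.00517), and this call was kept in all 9 alternative settings and all 6 leave-outs of an array. OPM2 minus ARP1 was −1.04 ± 0.21 (limma, adjusted p = 0.0244).

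PSMA5, a further alpha ring subunit, read 4544 and 3431 in ARP1, 8482 and 9221 in OCI-MY5, and 2314 and 2845 in OPM2. The 3 lines were again separate, and OPM2 minus OCI-MY5 was −1.78 ± 0.23 (limma, adjusted p = 0.00665). A second, much dimmer PSMA5 probe set was also lower in OPM2 than in OCI-MY5 (−1.34) but placed OPM2 above ARP1 (1.53), against −0.62 from the brighter one. PSMA4 read 19750 and 21282, 32510 and 30949, and 11159 and 14135, again with no overlap between lines. Its OPM2 minus OCI-MY5 difference was −1.34 ± 0.20 (limma, adjusted p = 0.00991). PSMD2, the scaffold subunit of the base that docks ubiquitin shuttle proteins, read 6664 and 6345, 9413 and 9820, and 3314 and 3862. It was lowest in OPM2 on both arrays, at −1.42 ± 0.18 from OCI-MY5 and −0.86 ± 0.18 from ARP1 (limma, adjusted p = 0.0063 and 0.0254).

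OPM2 and ARP1 differed in both directions, with a median over the 40 genes of −0.05 against −0.04 over all tested genes. By limma with Benjamini-Hochberg adjustment, 3 proteasome genes were higher in OPM2, where 10.1% of all tested genes were, and 4 were lower, where 14.8% were. The higher genes were PSMA1, PSMD5 and PSMF1, and the lower ones PSMA8, PSMD2, PSME1 and PSMG3. With each array centred on its median the calls left were PSMA8, PSME1 and PSMG3, all lower, and the all-gene calls went from 1225 higher and 1793 lower to 413 and 1454. For 14 genes both OPM2 arrays were above both ARP1 arrays (30.4% of all tested genes), and for 14 others both were below (35.2%). Without OPM2 CD24+ the median over the 40 genes was 0.13, and the remaining OPM2 array was above both ARP1 arrays for 22 genes (38.5% of all tested genes) and below both for 14 (47.8%). The median by role was −0.22 for the core, −0.02 for the regulatory particle, 0.00 for the activators with the inhibitor and 0.30 for the assembly factors. They moved with the setting: in the same order they were −0.01, 0.21, 0.29 and 0.44 without OPM2 CD24+, −0.42, −0.26, −0.29 and −0.00 without OPM2 CD24−, 0.17, −0.19, 0.09 and 0.10 with the mean of probe sets, and −0.48, −0.28, −0.26 and 0.03 with arrays centred. Every one of the 7 calls was lost without either ARP1 array, when none of the 40 genes was called. The count was 2 without either OCI-MY5 array, 13 without OPM2 CD24− and 6 without OPM2 CD24+. With the fraction as a term it was 5, and PSMF1 and PSMD5 lost their calls (limma, adjusted p = 0.0655 and 0.0749).

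PSME1 encodes a subunit of the interferon-inducible activator ring, and in it OPM2 stood apart from both other lines. It read 7768 and 7730 in ARP1, 8119 and 7889 in OCI-MY5, and 2970 and 3409 in OPM2. ARP1 and OCI-MY5 differed by −0.05 ± 0.17, and OPM2 was at −1.28 ± 0.17 from ARP1 and −1.33 ± 0.17 from OCI-MY5 (limma, adjusted p = 0.00835 and 0.00696). PSMF1, the inhibitor that binds the ends of the core, went the other way. It read 1193 and 1612 in ARP1, 1486 and 2002 in OCI-MY5, and 3231 and 2599 in OPM2. OPM2 was highest on both arrays and rose by 1.05 ± 0.27 over ARP1 (limma, adjusted p = 0.0428), although the next brightest PSMF1 probe set differed by only −0.01. The other PSMF1 probe sets, which were dimmer still, differed by 0.58 and 0.45. PSMD5, a chaperone of the regulatory particle base, read 831 and 939, 1158 and 962, and 1431 and 1648. OPM2 was again highest on both arrays, by 0.79 ± 0.20 over ARP1 (limma, adjusted p = 0.0427). The calls of PSMF1 and PSMD5 were kept in 4 and 5 of 9 alternative settings. PSMA1, given above, was 0.89 ± 0.19 higher in OPM2 than in ARP1 (limma, adjusted p = 0.0295), with 0.97 and 0.84 from its other probe sets.

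**Figure D3:**
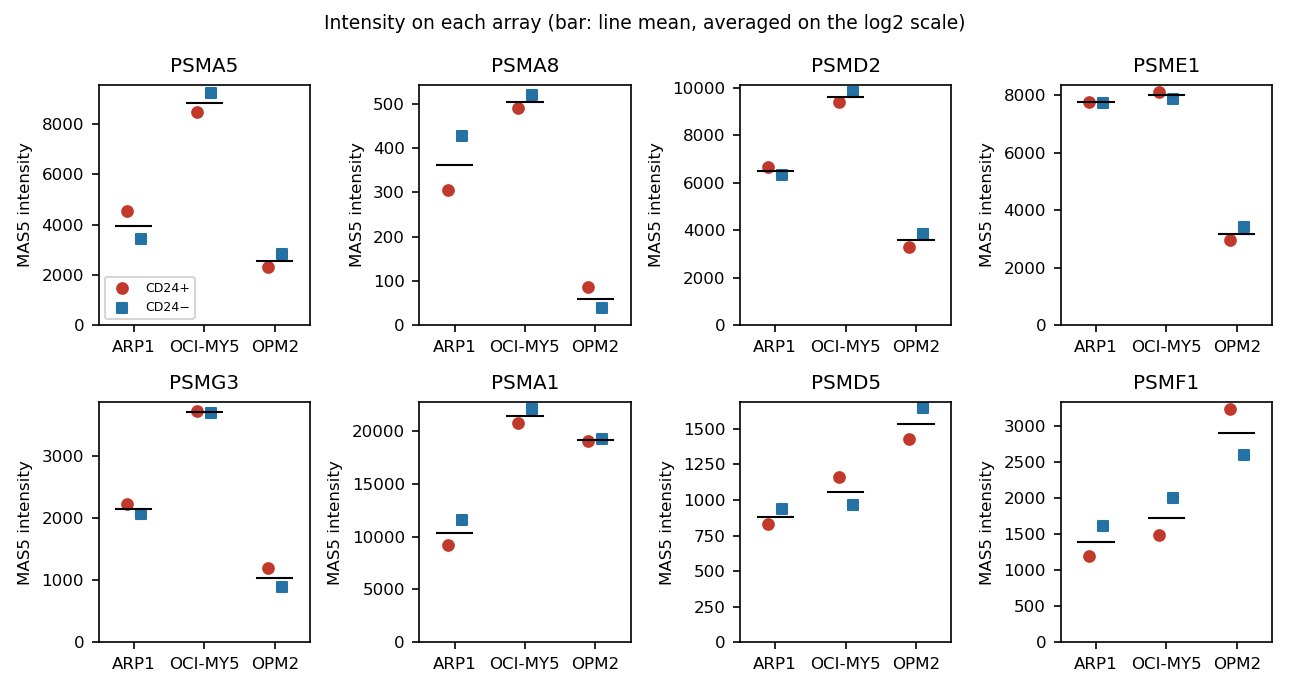
Points give the intensity on each of the 6 arrays for 8 proteasome genes called in a contrast with OPM2, by cell line and fraction (red circles CD24+, blue squares CD24−); bars are line means taken on the log2 scale. In the panels of PSMA5, PSMA8, PSMD2, PSME1 and PSMG3 both OPM2 points are the lowest, and in those of PSMD5 and PSMF1 they are the highest.

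Among the genes that share only the prefix, PSMA3-AS1, an antisense transcript of PSMA3, read 1093 and 1222 in ARP1, 871 and 1044 in OCI-MY5, and 405 and 496 in OPM2. Both OPM2 arrays were lowest, by −1.34 ± 0.21 against ARP1 and −1.06 ± 0.21 against OCI-MY5 (limma, adjusted p = 0.0121 and 0.021), while ARP1 was 0.27 above OCI-MY5. PSMA3 itself read 9079 and 9591, 15321 and 18267, and 6138 and 8471, with OPM2 minus OCI-MY5 at −1.21 ± 0.23 (limma, adjusted p = 0.0199) and ARP1 minus OCI-MY5 at −0.84. With the mean of all probe sets, OPM2 minus OCI-MY5 was −0.53 for PSMA3 and −0.50 for PSMA3-AS1 and neither was called (limma, adjusted p = 0.385 and 0.14), nor were they with no brightness limit (adjusted p = 0.0668 and 0.0732). The strand that these probe sets read is not given in the sources used here. Of the 5 tested prefix-sharing genes, 1 (PSMC3IP) had both OCI-MY5 arrays above both ARP1 arrays, where 30.3% of all tested genes did, and 3 had them below, where 33.6% did.

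The second comparison, the one the study was set up for, was between CD24+ and CD24− cells. No proteasome gene passed the test over the 3 lines, and neither did any other gene (limma with Benjamini-Hochberg adjustment, 0% of all tested genes called, lowest adjusted p = 1). None of the 40 had an unadjusted p under 0.05, where 149 of all 12078 tested genes did. In this fit the differences between lines add to the spread, so these counts do not show that the fractions are alike. The median difference over the 40 was −0.06 (CD24+ minus CD24−), against 0.03 over all tested genes, with 13 genes higher and 27 lower. With the cell line as a block, which pairs the fractions of a line, there were also 0 calls and the median was −0.06, while 559 of all tested genes had an unadjusted p under 0.05. How many of the 40 were among these was not counted. In bulk samples like these, a smaller share of cells that express a gene and less of its RNA per cell cannot be told apart.

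Within each line the fractions are 1 array against 1 array, and differences between lines were not tested. In ARP1, 27 proteasome genes read higher and 13 lower in CD24+ cells, with a median of 0.07, while 48.6% of all tested genes were lower. In OCI-MY5, 11 were higher and 29 lower, with a median of −0.07, while 46.0% of all tested genes were lower. In OPM2, 9 were higher and 31 lower, with a median of −0.27, while 46.2% of all tested genes were lower there. By role, the OPM2 median was −0.24 for the core, −0.49 for the regulatory particle, −0.37 for the activators with the inhibitor and −0.15 for the assembly factors. The OPM2 difference has no replicate check and rests on the CD24+ array with the high spike-in signal and the highest ACTB ratio. What part these have was not tested. After quantile normalization, 16 genes were lower in CD24+ cells for ARP1, 22 for OCI-MY5 and 29 for OPM2. With each array centred on its median they were 29, 35 and 39, and 64.7%, 59.7% and 82.2% of all tested genes were then lower too, so that the direction in ARP1 turned.

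**Figure D4:**
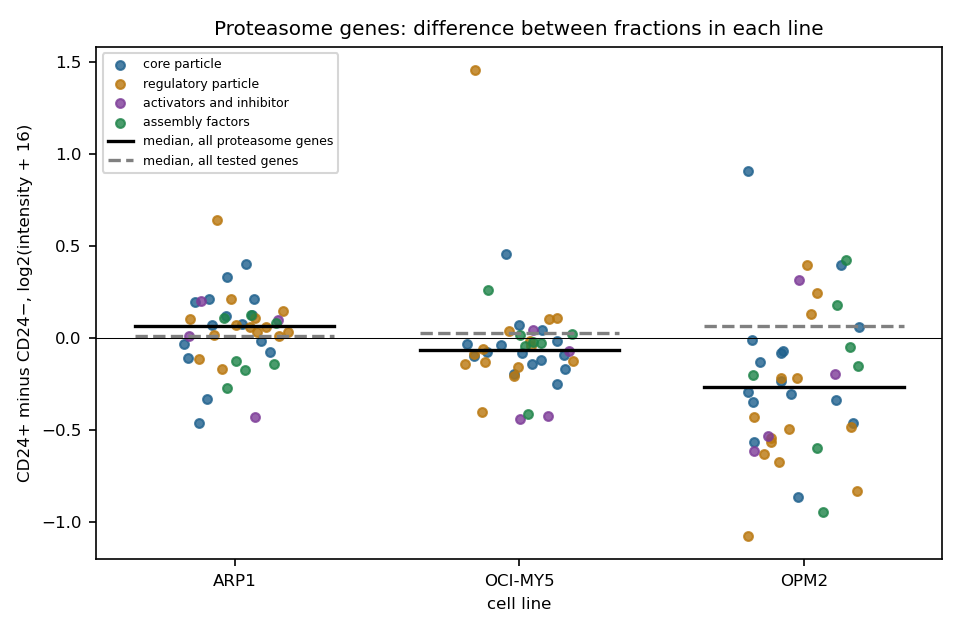
Each point is 1 of the 40 proteasome genes, placed by its CD24+ minus CD24− difference in log2(intensity + 16) within 1 cell line and coloured by role; solid bars are medians of these genes, dashed bars medians of all tested genes. The solid bar moves from 0.07 in ARP1 to −0.07 in OCI-MY5 and −0.27 in OPM2, while the dashed bars stay between 0.01 and 0.06.

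Some proteasome genes had the same direction in every line, and their number was not tested against that of all tested genes. CD24+ cells read lower in all 3 lines for 6 of the 40 genes (PSMA1, PSMA3, PSMA7, PSMC6, PSMD10 and PSMG1), compared with 12.2% of all tested genes, and higher in all 3 for 2 (PSMB4 and PSMG3), compared with 16.9%. The largest mean difference was that of PSMG1, an assembly chaperone of the alpha ring. It read 7551 and 8337 in ARP1, 9873 and 13190 in OCI-MY5, and 3607 and 6970 in OPM2. The differences were −0.14, −0.42 and −0.95, a mean of −0.50 ± 0.41 (SD, n = 3 lines), and the fractions overlapped across lines. PSMD10, a chaperone of the base, read 3775 and 4572, 3422 and 3530, and 4144 and 6288, a mean difference of −0.31 ± 0.28 (SD, n = 3). PSMC6, an ATPase of the base, read 5251 and 5679, 7877 and 8625, and 4332 and 6414, a mean of −0.27 ± 0.26 (SD, n = 3). In both, the gap in OPM2 was the widest of the 3. Without OPM2, the means of the other 2 lines were −0.28 for PSMG1, −0.16 for PSMD10 and −0.12 for PSMC6. PSMA3 had a mean difference of −0.27 ± 0.19 (SD, n = 3) from the intensities given above, but 0.39 as the mean of all its probe sets.

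The genes higher in CD24+ cells in all lines moved little. PSMB4, a non-catalytic beta subunit, read 32297 and 30676 in ARP1, 45377 and 44037 in OCI-MY5, and 35792 and 34406 in OPM2. Its mean difference was 0.06 ± 0.02 (SD, n = 3), and it was −0.01 after quantile normalization and −0.27 with arrays centred. PSMG3 had a mean of 0.18 ± 0.21 (SD, n = 3), which was −0.15 with arrays centred. The catalytic subunits read higher in CD24+ cells of ARP1 (0.19 to 0.33) and lower in those of OCI-MY5 (−0.20 to −0.02) and OPM2 (−0.87 to −0.07). PSMB5 had the widest range of the 3, with 0.19, −0.20 and −0.87. In the lid, which carries the deubiquitinase PSMD14, all 6 genes read higher in CD24+ cells of ARP1 and 5 of 6 lower in those of OPM2. Single genes went furthest outside this range: PSMD3, a lid subunit, read 6172 in CD24+ and 2240 in CD24− OCI-MY5 cells, and PSMC3 read 1412 in CD24+ and 2997 in CD24− OPM2 cells. Neither gap appeared in another line, where the differences were 0.06 and −0.68 for PSMD3 and 0.11 and 0.10 for PSMC3.

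Genes that work with the proteasome under other symbols were read from a list of 38, of which 32 were named on the array and 31 tested. The list held further subunits, assembly factors and proteasome-associated proteins, ubiquitin receptors and deubiquitinases, the VCP unfoldase with cofactors, ubiquitin genes, and the transcription factors that act on proteasome genes. Their median was 0.00 between ARP1 and OCI-MY5, with 0 called, unlike the −0.45 of the 40 proteasome genes. For the 7 further subunits, assembly factors and associated proteins alone it was −0.20, with 5 lower and 2 higher in ARP1. The subunits and assembly factors among them were split, with SEM1 at 0.22, PAAF1 at 0.02, ADRM1 at −0.20 and POMP at −0.51. The associated proteins AKIRIN2, ECPAS and TXNL1 were at −0.46, −0.01 and −0.71. The difference between the lists was not tested. Between fractions the median of all 31 was −0.00, with 0 called. In OPM2 minus ARP1, 5 of the 31 were called higher and 3 lower, where 10.1% and 14.8% of all tested genes were (limma, Benjamini-Hochberg). In OPM2 minus OCI-MY5, 3 were higher and 3 lower, where 11.4% and 14.7% of all tested genes were.

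UCHL5, a deubiquitinase of the regulatory particle, read 2361 and 2278 in ARP1, 2781 and 2570 in OCI-MY5, and 6553 and 8288 in OPM2. It rose in OPM2 by 1.66 ± 0.20 over ARP1 and 1.46 ± 0.20 over OCI-MY5 (limma, adjusted p = 0.00579 and 0.00763). SEM1, a small lid subunit, read 11550 and 8242, 8012 and 8711, and 4032 and 3854. It fell in OPM2, at −1.30 ± 0.22 against ARP1 and −1.08 ± 0.22 against OCI-MY5 (limma, adjusted p = 0.016 and 0.0253). MAFF, a small MAF protein that pairs with the factors at the antioxidant response element, read 1482 and 1695, 1017 and 981, and 303 and 194. It also fell, at −2.63 ± 0.25 and −1.97 ± 0.25 (limma, adjusted p = 0.0035 and 0.0069). MAFG, a related protein, rose against ARP1, by 1.21 ± 0.21 (limma, adjusted p = 0.0164). OPM2 minus ARP1 and OPM2 minus OCI-MY5 were 0.95 and 1.35 for UBXN4, a VCP cofactor, and −0.94 and −1.11 for the ubiquitin gene UBB, and the latter was 0.63 for ZFAND5, a proteasome-binding protein (limma, adjusted p = 0.0138 to 0.0449). NFE2L2, a factor of that element, and AKIRIN2, which carries proteasomes into the nucleus, were 0.91 and 0.90 higher in OPM2 than in ARP1 (limma, adjusted p = 0.0246 and 0.0173). Whether the calls of these related genes hold in the alternative settings or without 1 array was not examined. All of these genes had OPM2 arrays that did not overlap the lines named. They were named because they were called, so this is no separate support. Among all tested genes, OPM2 was above ARP1 without overlap for 30.4% and below it for 35.2%. Against OCI-MY5 the shares were 31.6% above and 34.3% below.

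Several members have more than 1 probe set of their own, and 30 further probe sets of 19 member genes were above the brightness limit. Their direction matched that of the brightest probe set in 23 of 30 cases for ARP1 minus OCI-MY5 and 20 for OPM2 minus OCI-MY5. It matched in 17 for OPM2 minus ARP1 and 12 for the fractions. PSMC2, an ATPase of the base, was at 0.73 in OPM2 minus ARP1 by its brightest probe set, and at −0.59 and −0.28 by its others. PSMD4, a ubiquitin receptor, was at −0.59 in ARP1 minus OCI-MY5 by its brightest probe set and at 0.02 and 0.09 by the others. The probe sets of PSMA1, PSMA7 and PSME3 used here can also bind transcripts of related genes.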

How the data were processed

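RNA of sorted CD24+ and CD24− cells was measured on 6 Affymetrix U133 Plus 2.0 arrays, 1 per line and fraction. The deposited values are intensities on a linear scale that the authors computed with MAS5 in Affymetrix Expression Console 1.1, per the submitters' processing notes and the design text; no detection calls were used.

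Of 54675 probe sets, 62 controls were left out and 41091 had 1 gene symbol in the platform annotation, of which 41043 matched RefSeq (GRCh38.p14). The brightest probe set stood for each gene. Genes with a mean log2(intensity + 16) of at least 6.36 were tested two-sided with limma 3.58.1 (R 4.3.3) and adjusted by Benjamini-Hochberg over all 12078 at 0.05. Fractions were compared 3 against 3 without a block, and lines with 2 arrays each and 1 shared spread. The fits were tested on simulated data. For the fraction contrast these held no differences between lines, unlike the arrays here, so they do not show what that fit can find. Alternatives were the pseudocount (1, 64), the brightness limit, the scaling, the probe set rule, the prior variance, a fraction term, left-out arrays and lines, and the line as a block. Replicate numbers mark the cell line and so pair the fractions. Deviations from the fraction means correlated at 0.70 to 0.77 within a line and at −0.58 to 0.15 between lines.

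The members and gene lists were chosen with earlier results of these data known. Values on every array were given for the catalytic subunits, the 3 largest called rises and falls of each line contrast, and, per role, the gene with the largest fraction difference of 1 sign in all lines. From each list of related genes, those called were given, up to 3 per contrast by size. PSMA4, PSMB10, PSMC2, PSMC3, PSMD2, PSMD3 and PSMD4 were chosen after their values were seen.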

Additional observations from a re-analysis of the deposited data

Results flagged for a closer look

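A probe set annotated to PSMB4 but not used for it read 15498 on the OPM2 CD24+ array and 707 to 1717 on the other 5. Its signal on that array was 3.162 above the highest CD24− array on the log2 scale. The brightest PSMB4 probe set differed by 0.06 between the same OPM2 fractions and the second brightest by −0.27. OPM2 CD24+ is also the array with the high spike-in signal; what part that has was not tested.

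The median CD24+ minus CD24− difference of the 40 proteasome genes was −0.27 in OPM2 and 0.07 in ARP1, which differ by −0.332. With 1 array per line and fraction, this difference between the lines was not tested.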

How the results depend on the processing

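Between fractions, 0 of the 40 genes were called in every setting, with the replicate block too, where the median stayed at −0.06 with the lines paired. Centring every array on its own median gave a median of −0.39, and leaving out 1 array gave −0.245 to 0.056. Centring moved the all-gene medians from 0.03 to −0.30 between fractions, from −0.04 to −0.30 for OPM2 minus ARP1, from −0.00 to −0.40 for OPM2 minus OCI-MY5 and from 0.04 to −0.09 for ARP1 minus OCI-MY5, and 29 genes were then lower in CD24+ cells of ARP1. For ARP1 minus OCI-MY5, the calls (0) were 2 with a pseudocount of 64, 7 with the limit at the 75th percentile, 1 with the mean of probe sets, 13 with an intensity trend and 0 to 3 without 1 array. The median (−0.45) was −0.58 centred and −0.33 with the mean of probe sets. For OPM2 minus ARP1, the calls (7) were 2 with no limit, 15 at the 75th percentile, 3 centred, 18 with a trend and 0 to 13 without 1 array. For OPM2 minus OCI-MY5, the calls (8) were 15 at the 75th percentile, 16 with a trend and 1 to 16 without 1 array. The median (−0.43) was −0.82 centred and −0.63 to −0.30 without 1 array. Fewer genes are tested at the higher limit, and fewer arrays remain in a leave-out; otherwise the cause was not tested.

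Signs turned for single genes in contrasts where they had passed no test. OPM2 minus ARP1 was 0.17 for PSMB7 with the mean of probe sets and −0.21 to 0.12 for PSMB6 without 1 array. Between fractions, PSMA3 was 0.39 with the mean of probe sets, PSMB4 −0.0082 after quantile normalization and −0.27 centred, and PSMG3 −0.15 centred. Without 1 array the ranges were −0.42 to 0.22 for PSMA1, −0.61 to 0.074 for PSMA3, −0.18 to 0.11 for PSMA7, −0.081 to 0.20 for PSMB4 and −0.36 to 0.66 for PSMG3. Of the other values of single genes, 431 kept their direction and stayed on their side of the threshold, 73 lost a call and 12 gained one. Of the medians by role, 222 stayed within their spread and 30 moved beyond it.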
